A study of Mus musculus with 12 samples.

Results

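Complex I and ATP synthase, the first and the last enzyme of mitochondrial oxidative phosphorylation, are built mostly from subunits encoded in the nucleus. The genes described here are the protein-coding genes of the GENCODE M21 mouse annotation (mm10) whose symbol starts with Ndufa, Ndufb, Ndufc, Ndufs, Ndufv or Atp5. The rule found 64 members among 21938 protein-coding genes. They were 36 complex I subunits, 17 gene models of ATP synthase subunits, 8 complex I assembly factors (Ndufaf1 to Ndufaf8), Ndufa4 with its paralogue Ndufa4l2, and Atp5s, a factor of the ATP synthase.

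The data were peak lists from CUT&RUN, in which an antibody tethers a nuclease that releases the DNA around a chromatin protein, in C2C12 cells, an established line of mouse myoblasts. Antibodies were against trimethylated lysine 4 of histone H3 (H3K4me3) and against MBD2. The 4 cell states were cells at day 0, cells at day 1 of differentiation in medium with 2% horse serum, and the myotubes (D5MT) and the reserve cells (D5RC) of day 5, which were separated by mild trypsinisation. Each antibody gave 1 library per state, so that no difference below has a replicate check, and 4 IgG libraries were not analysed here. The labels name no mutation and no other treatment, and all groups come from 1 cell line. In bulk cells, a mark on more cells and a longer mark in each cell cannot be told apart. The 3 comparisons with day 0 share the same day 0 library.

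Complex I takes electrons from NADH and passes them to ubiquinone while it pumps protons across the inner membrane, and ATP synthase lets those protons flow back through a turning ring to make ATP. Skeletal muscle is rich in both, and mitochondria multiply as myoblasts become myotubes. H3K4me3 is deposited around the starts of active genes, whereas MBD2 is a reader of methylated CpG dinucleotides that belongs to a repressive complex.

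The sequences below show DNA at members that carried an MBD2 peak or a motif of a factor known for mitochondrial genes. The first set is centred on the summit of the day 0 MBD2 peak, 151 bases from the mm10 genome, written 5′ to 3′ along the gene's strand, with each CpG in capitals because CpG is the dinucleotide that MBD2 reads. The set is limited to the 3 members whose window held no annotated exon: Atp5l at chr9:44921014-44921164 (minus strand), Atp5g1 at chr11:96075998-96076148 (minus strand) and Ndufs8 at chr19:3912783-3912933 (minus strand).
Atp5l: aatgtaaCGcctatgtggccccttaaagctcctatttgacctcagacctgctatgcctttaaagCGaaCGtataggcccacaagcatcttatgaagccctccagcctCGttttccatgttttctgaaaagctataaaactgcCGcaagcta
Atp5g1: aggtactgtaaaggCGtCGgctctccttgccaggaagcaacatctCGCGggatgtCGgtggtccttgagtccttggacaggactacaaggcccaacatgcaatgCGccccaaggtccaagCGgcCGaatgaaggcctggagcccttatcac
Ndufs8: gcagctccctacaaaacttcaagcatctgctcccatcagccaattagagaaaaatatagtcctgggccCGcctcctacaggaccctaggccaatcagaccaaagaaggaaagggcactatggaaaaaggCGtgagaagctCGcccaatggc

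The windows held 5 CpG at Atp5l, 8 at Atp5g1 and 3 at Ndufs8. The windows of Ndufaf3, Atp5d and Ndufb11, which overlapped exons, held 6, 9 and 9 CpG. The median of the 6 windows was 7 CpG, the same as over the 2432 protein-coding genes with a day 0 MBD2 promoter peak, of which 3.95% had no CpG in the window. Sequence does not tell which of these cytosines were methylated.

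The second set gives the 250 bases before a RefSeq start (GRCm38.p6), with matches to GCATGCGC, the core of the site of nuclear respiratory factor 1 (NRF1), or to CCGGAAG, the core read by ETS factors such as Gabpa, in capitals on either strand. These 3 members had a match and no annotated exon in that stretch: Ndufaf4 at chr4:24897833-24898082 (plus strand), Ndufaf1 at chr2:119662835-119663084 (minus strand) and Ndufb6 at chr4:40279422-40279671 (minus strand).
Ndufaf4: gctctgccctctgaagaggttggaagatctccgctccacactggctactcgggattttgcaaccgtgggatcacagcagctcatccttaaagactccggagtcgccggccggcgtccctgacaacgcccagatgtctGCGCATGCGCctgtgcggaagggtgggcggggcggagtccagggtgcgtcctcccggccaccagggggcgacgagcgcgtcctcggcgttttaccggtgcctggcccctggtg
Ndufaf1: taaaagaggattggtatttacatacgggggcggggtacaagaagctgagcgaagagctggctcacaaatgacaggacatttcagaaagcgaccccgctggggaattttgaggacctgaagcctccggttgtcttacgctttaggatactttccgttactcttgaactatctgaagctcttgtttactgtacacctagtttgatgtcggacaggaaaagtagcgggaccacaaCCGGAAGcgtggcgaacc
Ndufb6: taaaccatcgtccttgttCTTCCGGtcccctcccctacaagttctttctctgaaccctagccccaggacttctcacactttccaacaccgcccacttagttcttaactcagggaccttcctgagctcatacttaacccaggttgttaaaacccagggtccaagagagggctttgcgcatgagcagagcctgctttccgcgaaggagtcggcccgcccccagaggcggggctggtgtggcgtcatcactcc

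In Ndufaf4 the capitals are 2 overlapping matches to the NRF1-like core, 1 on each strand. Ndufaf1 and Ndufb6 each had 1 match to the ETS-like core. A match is a run of letters and not evidence that a factor was bound.

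The libraries differed in their numbers of peaks. On the main chromosomes the H3K4me3 lists held 15920 to 26034 peaks and the myotube list was the longest, with a median length of 1217 bp against 1729 to 1936 bp in the others. The MBD2 lists held 14948 peaks at day 0, 452 at day 1, 288 for myotubes and 111 for reserve cells. The files hold no read totals, so the depth is unknown. Of 6 myotube markers, 0 had a promoter H3K4me3 peak at day 0, 6 at day 1, 6 in the myotube library and 5 in the reserve cell library. Of 3 markers of reserve cells, 3, 3, 2 and 3 had one, and of 6 markers of other lineages 0, 1, 0 and 0. The 5 marked in reserve cells had peaks of 529 to 4367 bp, and the part of cells of the other fraction in the results was not tested.

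H3K4me3 was present at nearly every member in every state. A promoter peak here is a deposited peak within 1 kb of a transcript start. It was found at 62 of 64 members in each of the 4 libraries, and these were the same 62 genes throughout. Among all protein-coding genes the share with such a peak was 56.5% at day 0, 56.2% at day 1, 57.3% for myotubes and 54.8% for reserve cells, and 53.6% had it in all 4. The chosen peak of the member, the 1 with the highest fold enrichment, covered an annotated start in all cases except Ndufa13, whose peak began 383 bp from a start at day 1 and 104 bp from it in reserve cells. All 36 complex I subunits and all 8 assembly factors were marked in all libraries.

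The 2 members without the mark are a paralogue and a gene model. Ndufa4l2, a paralogue of Ndufa4 known to be induced by low oxygen, had its nearest H3K4me3 peak upstream of the gene and outside the 1 kb limit. That peak ended 1114, 1539, 1414 and 1532 bp upstream of the gene's 5′ end in the order day 0, day 1, myotubes and reserve cells, and was 2529, 2018, 2228 and 1895 bp long. Ndufa4 itself, now assigned to cytochrome c oxidase, had a peak of 3350 bp at day 0, 2969 bp at day 1, 2848 bp for myotubes and 2621 bp for reserve cells. For Atp5o, a peripheral stalk subunit, the annotation has a second model (ENSMUSG00000116933.1) that starts elsewhere and was unmarked. The main Atp5o model was marked over 2466, 2204, 1928 and 1968 bp.

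Peak lengths of the members were near those of other marked genes and shorter than those of ribosomal protein genes. The median over the 62 marked members was 3050.5 bp at day 0, 2470.5 bp at day 1, 2518.5 bp for myotubes and 2226 bp for reserve cells. Where 4 values follow each other, their order is day 0, day 1, myotubes, reserve cells. The same median over every marked protein-coding gene was 2738, 2483, 2422 and 2167 bp, and for ribosomal protein genes 4387.5, 3015, 3150 and 2530.5 bp. Among the members, ATP synthase subunits carried the longer peaks, with medians of 3477, 2879.5, 3415 and 2478.5 bp, against 2703.5, 2250, 2371.5 and 2122.5 bp for complex I subunits. Assembly factors had medians of 3104.5, 2592, 2372 and 2325.5 bp. The ranges of these groups overlapped in all 4 libraries.

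**Figure D1:**
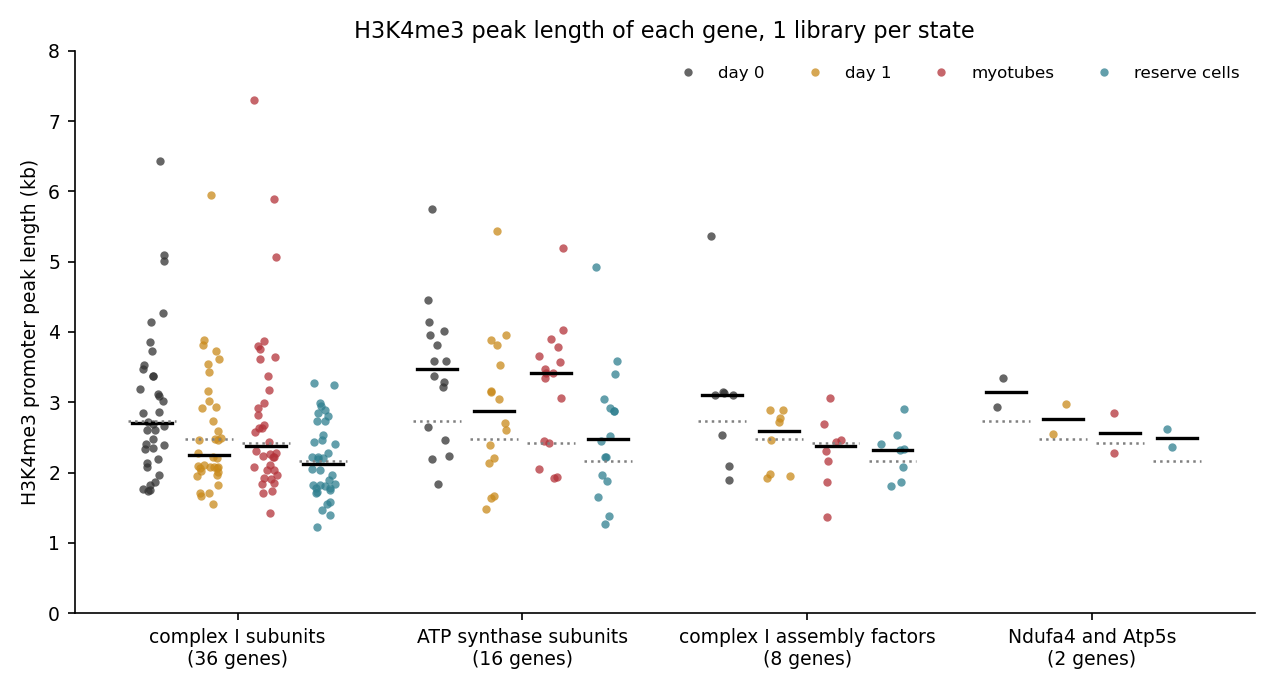
Length in kb of the H3K4me3 promoter peak of each marked gene (points) by gene group and cell state, with the group median (black bar) and the median of all marked protein-coding genes (dotted grey line). ATP synthase subunits had higher medians than complex I subunits and assembly factors in day 0 cells (3477 bp) and in myotubes (3415 bp), and 1 complex I gene, Ndufa13, stood highest in myotubes at 7299 bp.

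At day 0 the longest peaks were those of Ndufb10 (6428 bp), Atp5c1 (5742 bp) and Ndufaf3 (5366 bp). Ndufb10 and Ndufa3 are membrane-arm accessory subunits, Atp5c1 is the γ subunit of the central stalk, and Ndufaf3 helps to assemble the ubiquinone-binding module. The shortest were those of Ndufa3 (1738 bp), Ndufa8 (1750 bp) and Ndufc1 (1762 bp), all of the membrane arm. Ndufa3 stayed short, at 1548 bp at day 1, 1431 bp for myotubes and 1219 bp for reserve cells. Atp5c1 stayed long, at 5433, 5194 and 4924 bp in those libraries.

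In the catalytic core of complex I, Ndufv1, which holds the NADH site, had peaks of 1872 bp at day 0, 1714 bp at day 1, 2030 bp for myotubes and 1709 bp for reserve cells. Ndufs1, the large iron-sulphur subunit, was marked over 5003, 3891, 3869 and 3248 bp. Its day 0 peak also lay within 1 kb of a start of the translation factor gene Eef1b2. Thus Ndufv1 was longest in myotubes and Ndufs1 at day 0, and the core subunits as a group had medians of 3014, 2730, 2924 and 2433 bp. Ndufb8, a membrane-arm subunit often used as a marker of assembled complex I, had 2140, 2079, 1845 and 1897 bp.

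In the ATP synthase, the catalytic head subunits Atp5a1 (α) and Atp5b (β) had similar lengths in day 0 cells and myotubes. Atp5a1 had 3819 bp at day 0, 3142 bp at day 1, 3662 bp for myotubes and 3053 bp for reserve cells. For Atp5b the lengths were 4018, 3960, 3895 and 2873 bp. The c-ring genes Atp5g1, Atp5g2 and Atp5g3 encode the same mature protein from separate loci. Atp5g1 (chr11:96073207-96076797 at day 0) was marked over 3591, 2610, 3413 and 2224 bp. Atp5g2 had 4454, 3536, 4026 and 3405 bp, and Atp5g3 3215, 2389, 3342 and 2513 bp. Each of the 3 was longer in both day 0 cells and myotubes than in day 1 and reserve cells. That order is not particular to the c-ring, since Atp5a1 had it too, whereas Atp5b was longer at day 1 than in myotubes. The share of all genes with this order was not counted.

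Across the states, most members had their longest peak at day 0 and their shortest in reserve cells. Day 0 gave the longest peak of 43 of 62 members (69.4%) and reserve cells the shortest of 44 (71.0%). Among the 11753 protein-coding genes marked in all libraries the shares were 61.1% and 64.6%. Reserve cells gave the longest peak of 0 members, beside 1.685% of those genes.

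From day 0 to day 1 the median length ratio of the members was 0.883, against 0.910 for all protein-coding genes marked in both. Of 62 members, 0 were at least 1.5 times longer and 2 at least 1.5 times shorter, while 1.17% and 5.69% of all tested genes were. The 2 shorter were Ndufa13 (ratio 0.489) and Ndufaf3 (0.539), whose peaks split and are described below. Next came Atp5mpl, a small membrane subunit of the ATP synthase, with 2199 bp at day 0 and 1485 bp at day 1, which fell just outside the limit, and Ndufa7 with 5093 and 3540 bp. The largest ratios were those of Ndufv3 (1.19), Ndufb3 (1.08), Ndufc2 (1.07) and Ndufa8 (1.04).

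From day 0 to myotubes the median ratio was 0.911, against 0.887 for all genes, and 1 member was at least 1.5 times longer and 4 at least 1.5 times shorter. The background shares were 5.76% longer and 14.5% shorter, so that fewer members passed either limit (1.61% and 6.45%) than genes at large. When each ratio was divided by the median of all genes the members' median became 1.03 and thus turned from shorter to longer. The 1 longer peak was that of Ndufa13 (1.71), followed by Ndufb11 (1.31), Ndufa12 (1.17) and Ndufb3 (1.14). The 4 shorter were Ndufa7 (0.526), Ndufaf3 (0.569), Ndufab1 (0.642) and Ndufaf6 (0.649), and the nearest member outside the limit was Ndufa10 at 0.723. By covered bases within 5 kb, Ndufab1 (0.759) and Ndufaf3 (0.827) no longer passed. Ndufab1, the mitochondrial acyl carrier protein, had 3523 bp at day 0, 2466 bp at day 1, 2263 bp for myotubes and 2736 bp for reserve cells. Ndufaf6, an assembly factor, had 2099, 1948, 1362 and 1866 bp and was shortest in myotubes.

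The medians of the groups of members spread in this comparison. ATP synthase subunits had a median ratio of 0.952 (16 genes, range 0.782 to 1.10), complex I subunits 0.918 (36 genes) and assembly factors 0.786 (8 genes, range 0.569 to 0.987). None of the 8 assembly factors was longer in myotubes than at day 0, against 12 of 36 complex I subunits and 4 of 16 ATP synthase subunits (33.3% and 25%). Of all protein-coding genes 29% were longer, so the subunits lay near that share, and 0 of 8 is a small count. The 11 further assembly and inhibitor genes of these enzymes, which are not members, had a median ratio of 0.897, near the 0.887 of all genes. The low ratio was thus not shared by assembly genes at large. For ribosomal protein genes the median was 0.736. No test was run between these groups, and the gene lists were chosen with earlier results known.

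From day 0 to reserve cells all 62 marked members had a shorter peak, with a median ratio of 0.776 against 0.788 for all genes, of which 93.6% were shorter. At least 1.5 times shorter were 10 members (16.1%) and 0 were as much longer, beside 19.6% and 0.816% of all genes. The lowest ratios were those of Ndufb10 (0.354), Ndufa13 (0.520), Ndufaf3 (0.541) and Ndufa7 (0.568). Near the limit, Ndufb6 lay inside it at 0.666 and Atp5d outside at 0.677. By covered bases 7 passed: Ndufb10, Ndufa13, Ndufaf3 and Ndufs6 (0.684) did not, and Atp5b (0.608) did. Closest to 1 were Ndufc2 (0.999), Ndufaf1 (0.959), Ndufb3 (0.926) and Ndufv1 (0.913). Ndufc2, a membrane-arm subunit, varied little, with 1829 bp at day 0, 1959 bp at day 1, 1840 bp for myotubes and 1827 bp for reserve cells.

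Between the day 5 fractions, 50 of 62 members had a longer peak in myotubes than in reserve cells (80.6%, against 73.3% of all genes), and the median ratio was 1.19 against 1.12. At least 1.5 times longer were 7 members (11.3%) and 0 were as much shorter, beside 14.1% and 3.31% of all genes. The 7 were Ndufa13 (3.29), Ndufb10 (2.59), Ndufa12 (1.59), Atp5d (1.56), Ndufb11 (1.55), Atp5g1 (1.53) and Atp5e (1.53), and Atp5k lay just outside at 1.49. By all bases covered within 5 kb of the 5′ end there were also 7, 4 of them among those above. Ndufb10 then had a ratio of 1.12, Atp5d 1.17 and Ndufa12 1.40, while Ndufs7 (1.90), Atp5k (1.86) and Atp5b (1.53) passed the limit. ATP synthase subunits had a median ratio of 1.29, complex I subunits 1.21 and assembly factors 1.03. Ndufb11, an X-linked membrane-arm subunit, had 3862 bp at day 0, 3810 bp at day 1, 5073 bp for myotubes and 3275 bp for reserve cells. Its peak also lay within 1 kb of a start of Rbm10. Ndufa12, of the peripheral arm, had 2410, 2458, 2820 and 1778 bp, and Ndufb3 had 3184, 3433, 3618 and 2947 bp.

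**Figure D2:**
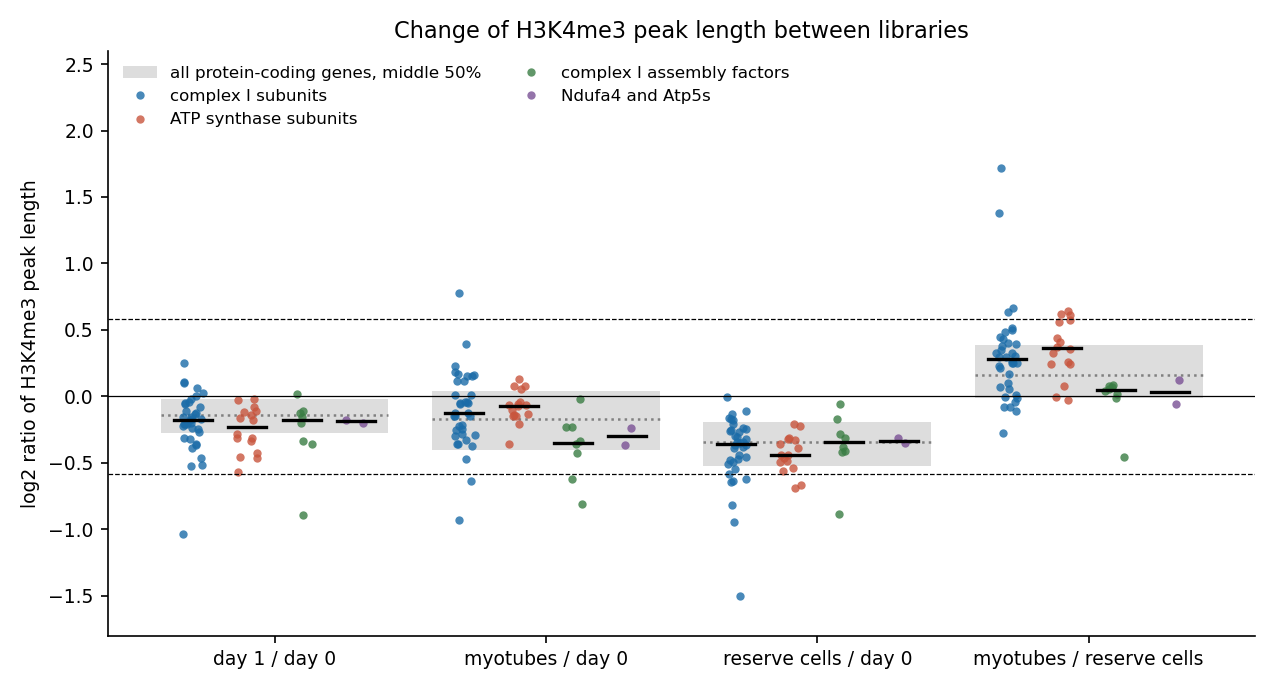
Log2 ratio of H3K4me3 peak length between libraries for each marked gene (points) with the group median (black bar), the middle 50% and median of all protein-coding genes (grey band and dotted line) and the 1.5-fold limits (dashed). For myotubes over day 0 the median ratio of the 8 assembly factors is 0.786, below those of the complex I subunits (0.918) and ATP synthase subunits (0.952), while the lowest single point is Ndufa7 (0.526), and all points for reserve cells over day 0 lie below 0.

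Several of the largest changes were splits or joins of peaks. Ndufa13 (chr8, 5′ end at 69902558, minus strand), a membrane-arm subunit also known as GRIM-19, had 1 peak at day 0, chr8:69899959-69904227. It also lay within 1 kb of starts of Tssk6 and Yjefn3. At day 1 it was 2 peaks of 2087 and 1197 bp on either side of the 5′ end, and in reserve cells 2 peaks of 2219 and 1095 bp. In myotubes it was 1 peak of 7299 bp that reached 5648 bp into the gene, against 2599 bp at day 0, with a fold enrichment of 16.15, at percentile 13.9 among marked genes of that library. Counting all bases covered within 5 kb of the 5′ end, the ratios to day 0 were 0.769 at day 1, 1.56 for myotubes and 0.776 for reserve cells.

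Ndufb10 (chr17, 5′ end at 24724478, minus strand) lay within 1 peak of 6428 bp at day 0, 5948 bp at day 1 and 5898 bp in myotubes. That peak was also within 1 kb of starts of Rnf151 and Rps2, a ribosomal protein gene. In reserve cells the peak was divided into 2273 bp at Ndufb10 and 3050 bp beyond it, and the covered bases within 5 kb were 0.868 of day 0, against the ratio of 0.354 for the peak. Ndufaf3 had a day 0 peak of 5366 bp, chr9:108565716-108571081, that also lay within 1 kb of a start of Dalrd3. The later libraries had 2894, 3055 and 2904 bp at Ndufaf3 and a separate peak of 1671, 1497 and 1297 bp upstream, and by covered bases the ratios were 0.829, 0.827 and 0.763, none past the limit. Ndufa7, which shares its peak with Rps28, did not split at its 5′ end. Its peak was 5093 bp at day 0, 3540 bp at day 1, 2678 bp for myotubes and 2892 bp for reserve cells, and by covered bases the ratio of myotubes to day 0 was also 0.526.

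**Figure D3:**
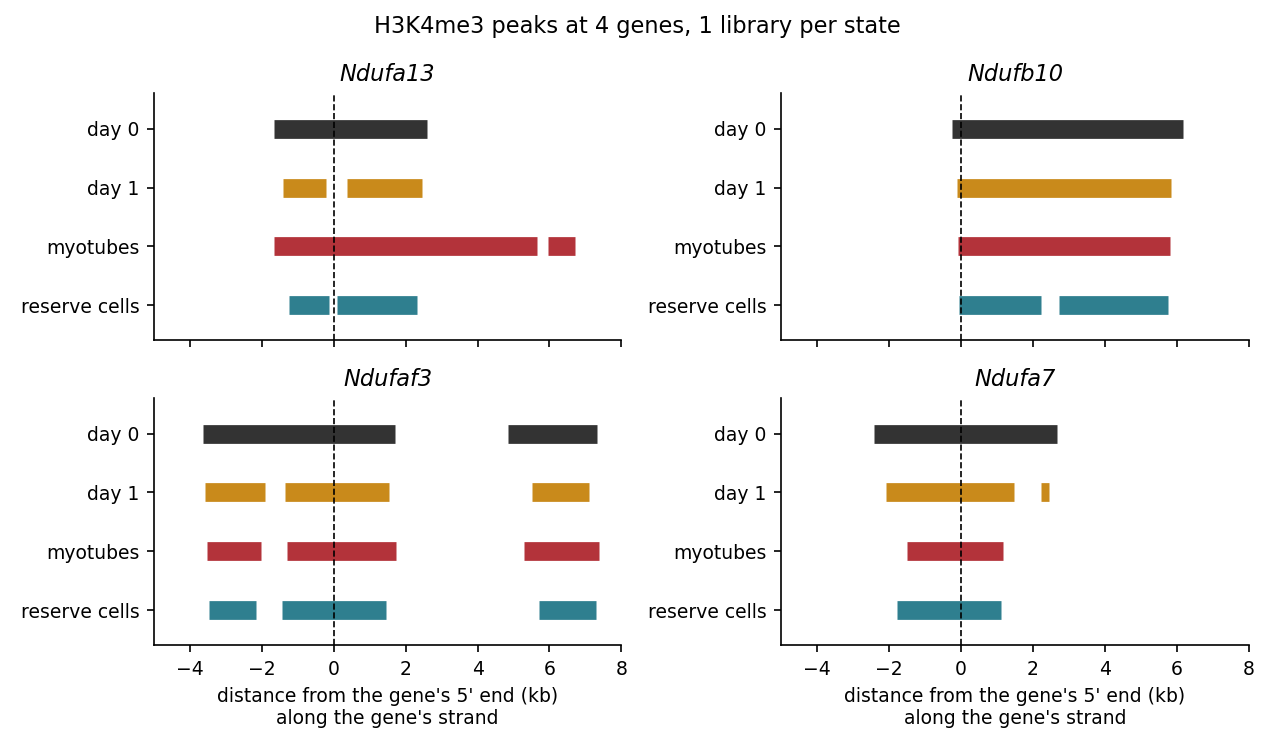
H3K4me3 peaks at Ndufa13, Ndufb10, Ndufaf3 and Ndufa7 as horizontal bars for each library, by distance in kb from the gene's 5′ end along its strand (dashed line at 0). The Ndufa13 peak reaches 5648 bp past the 5′ end in myotubes, the Ndufb10 peak is divided in reserve cells, the Ndufaf3 peak is divided after day 0, and the Ndufa7 peak is shorter at both edges in both day 5 fractions.

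The position of the mark around the 5′ end differed by group. At day 0 the peaks of complex I subunits reached a median of 820 bp before and 1719 bp after the 5′ end, and those of ATP synthase subunits 1091 and 2368.5 bp. Over every marked protein-coding gene these were 755 and 1863 bp. Assembly factors had 1493.5 bp before and 1428 bp after, with a median summit 34 bp before the 5′ end, while the summit lay 483 bp after it in complex I subunits and 774 bp after it in ATP synthase subunits. More of the peak lay after the 5′ end in 15 of 16 ATP synthase subunits, 30 of 36 complex I subunits and 3 of 8 assembly factors, against 85.9% of all genes. In reserve cells the median summits of the subunits lay closer to the 5′ end, at 212.5 bp for complex I and 357.5 bp for ATP synthase. The same held for all genes (from 501 bp at day 0 to 297 bp). The median summit of the assembly factors did not lie closer, at 116 bp after the 5′ end in reserve cells.

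**Figure D4:**
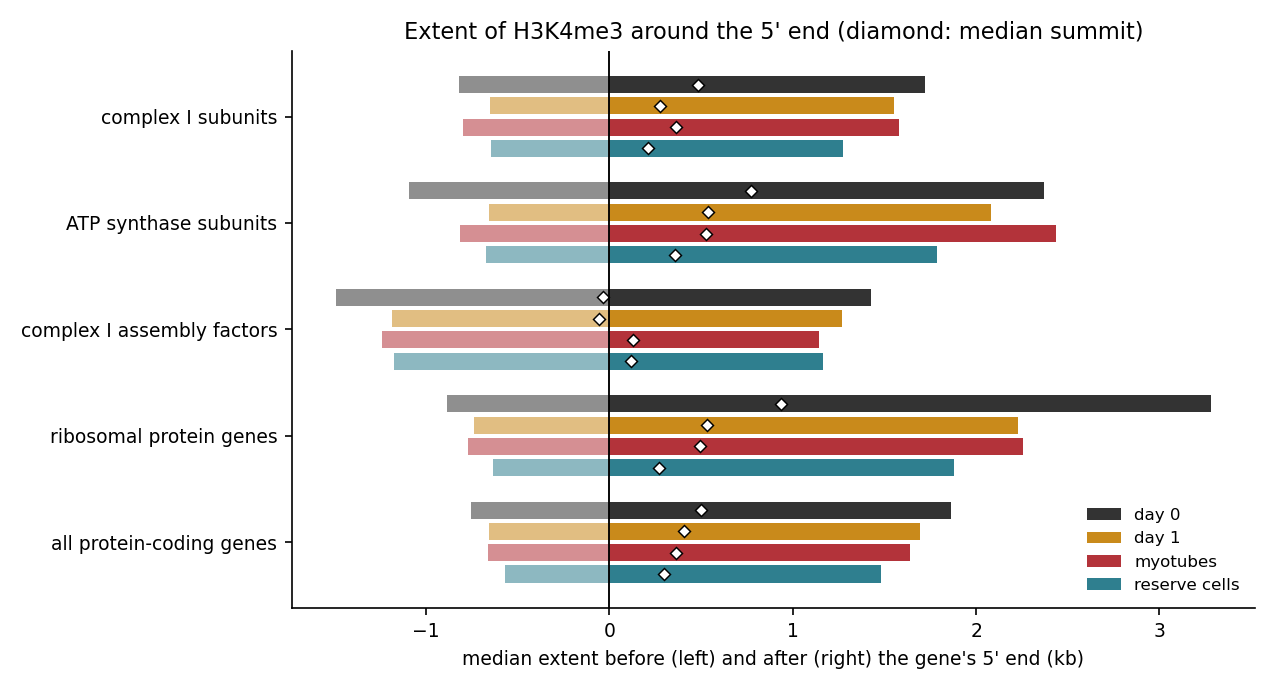
Median extent in kb of the H3K4me3 promoter peak before (left, pale) and after (right) the gene's 5′ end for 5 groups of genes in the 4 libraries, with the median summit as a diamond. Assembly factors extend about as far before the 5′ end (1493.5 bp at day 0) as after it (1428 bp), whereas ATP synthase subunits extend 1091 and 2368.5 bp.

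Many members shared their mark with a neighbour. At day 0 the peak of 27 of 62 members (43.5%) also lay within 1 kb of a start of another protein-coding gene, against 21.8% of all marked genes, and no peak served 2 members. A neighbour that starts within 1 kb on the opposite strand and points away was found for 16 of 64 members (25%), 6.79% of all protein-coding genes and 11.8% of those marked in all 4 libraries. Among assembly factors it was 4 of 8: Ndufaf2 with the DNA repair gene Ercc8, Ndufaf5 with Esf1, Ndufaf7 with Cebpz and Ndufaf8 with Tepsin. Among ATP synthase subunits it was 2 of 17, Atp5c1 with Kin and Atp5h with Kctd2. The Atp5j peak, of 3962 bp at day 0, also lay within 1 kb of a start of Gabpa. Gabpa is an ETS factor known to act on genes of oxidative phosphorylation. The pair was not counted as divergent because the genes overlap at their 5′ ends. The 27 shared peaks had a median of 3375 bp at day 0 and the other 35 a median of 2611 bp, and their median ratios of myotubes to day 0 were 0.905 and 0.930.

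Motifs were searched from 250 bp before to 50 bp after each gene's 5′ end on both strands, allowing overlaps. The NRF1-like core GCATGCGC occurred at 6 of 64 members (9.38%), at 3.71% of all protein-coding genes and at 5.38% of those marked in all libraries. The YY1-like core AAGATGG occurred at 10 members (15.6%), against 6.22% and 7.11%. The ETS-like core CCGGAAG occurred at 11 members (17.2%), against 10.8% and 17.6%. GGGCGG, read by Sp1, was found at 28 members (43.8%), against 43.0% and 62.4%, and TATAAA at 8 members (12.5%), against 12.7% and 7.06%. The members had a median of 17 CpG in the 300 bp, against 11 in all genes and 20 in those marked throughout. At RefSeq starts, a choice made after seeing the data, 8 of 53 matched member symbols (15.1%) had the NRF1-like core, against 4.11% of all matched genes, and 10 (18.9%) the YY1-like core, against 7.26%. Members with the NRF1-like core were Atp5g2, Atp5k, Atp5l, Ndufa11, Ndufa6, Ndufa8, Ndufaf4 and Ndufaf5. No window was tested for binding.

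**Figure D5:**
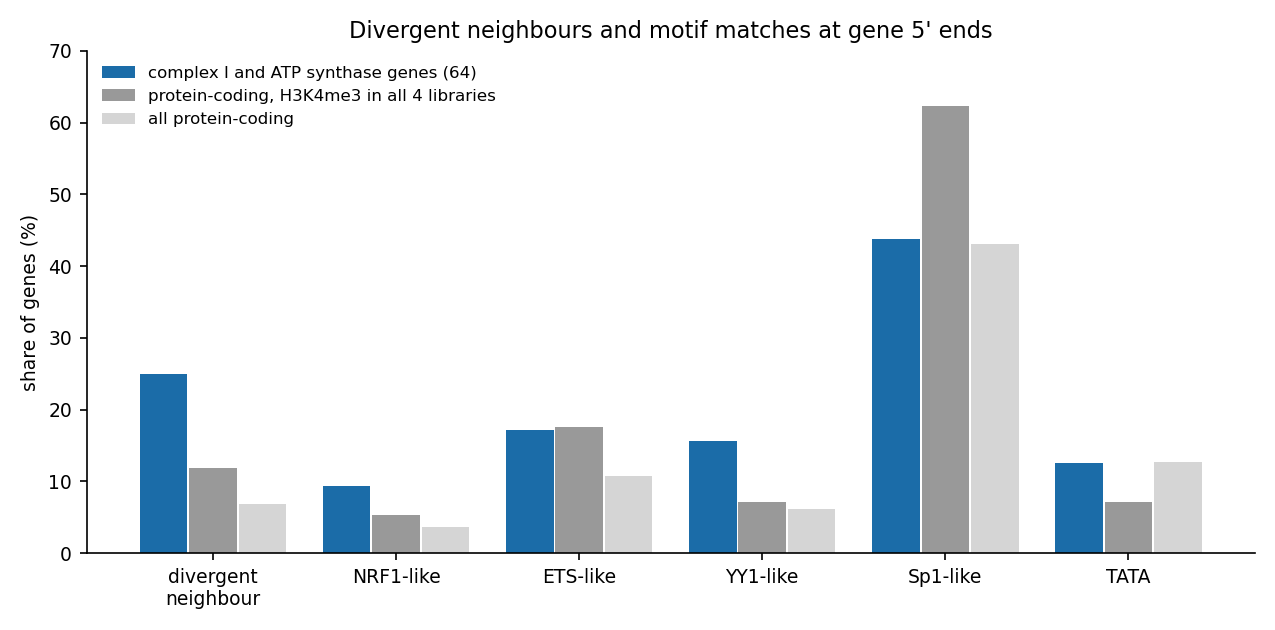
Share of genes in percent with a divergent neighbour or with a match to each motif around the 5′ end, for the 64 genes, for protein-coding genes with H3K4me3 in all 4 libraries and for all protein-coding genes. Divergent neighbours stand at 25% among the 64 genes against 11.8% and 6.79%, and Sp1-like matches at 43.8% against 62.4% and 43.0%.

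Within each library the fold enrichment over local background, the authors' value, placed the members near the middle of the marked genes. Their median percentile was 57.6 at day 0, 57.2 at day 1, 53.2 for myotubes and 63.8 for reserve cells. These ranks come from lists of different lengths and are not compared between libraries. At day 0 the highest folds were those of Ndufb7 (91.94), Atp5h (80.12) and Ndufb10 (77.88). At day 1 they were those of Ndufaf5 (97.12), Ndufv2 (86.48) and Atp5g1 (86.3), and in myotubes those of Ndufb3 (67.46), Atp5k (58.02) and Ndufv2 (55.77). In reserve cells Ndufs3 (88.59) and Ndufs1 (81.64) were among the highest. In myotubes the assembly factors had a median percentile of 23.3, with 2 of 8, Ndufaf1 (73.3) and Ndufaf4 (82.7), above 70. ATP synthase subunits had 63.6 there and complex I subunits 53.0. Each within its own list, the median percentile of the assembly factors was 50.9 at day 0, 74.8 at day 1 and 68.0 in reserve cells. Complex I subunits had 57.2, 53.9 and 53.3 in those libraries, and ATP synthase subunits 59.5, 56.95 and 68.3.

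MBD2 was found at the promoter of 6 of 64 members at day 0 (9.38%), against 11.1% of all protein-coding genes and 19% of those that had H3K4me3 there. The share was thus not above the background. By fold enrichment the 6 were Atp5l (5.88), Ndufaf3 (5.88), Ndufs8 (5.59), Atp5d (5.03), Atp5g1 (4.30) and Ndufb11 (3.91). Their median fold was 5.31, against 5.88 for all genes called, and their pileups at the summit were 5 to 9 fragments. Ndufs8, an iron-sulphur core subunit, had its summit 84 bp upstream of the nearest start (peak chr19:3912775-3913047). Atp5g1 had it 403 bp upstream, Atp5l, the g subunit, 347 bp upstream, and Ndufb11 118 bp upstream, where the 151-base window overlapped an exon of Rbm10. Ndufaf3 and Atp5d, the δ subunit, had theirs 108 and 159 bp downstream of a start, in windows that overlapped an exon of the same gene. For Atp5d that start belongs to a basic transcript. The 5′ end of the gene model, 2984 bp from the summit, is not the start of a basic transcript. All 6 summits lay inside the H3K4me3 peak of the same library, 724 to 1869 bp from its nearer edge. Of the 2432 protein-coding genes with a day 0 MBD2 promoter peak, 2358 also had an H3K4me3 promoter peak. The overlap therefore does not set the members apart, and the share of all summits inside H3K4me3 peaks was not counted.

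In each of the 3 later libraries 0 of 64 members had an MBD2 promoter peak. Of all protein-coding genes 0.998% had one at day 1, 0.62% in the myotube library and 0.251% in the reserve cell library. Those lists hold few peaks. Within 5 kb of the 5′ end the count was 9 at day 0 (14.1%, against 14.9% of all protein-coding genes) and 0 in each later library, against 1.199%, 0.743% and 0.296% of all genes. With as many MBD2 peaks taken from each list as the shortest holds, 0 members had a peak at day 0 too, where 0.292% of all genes did, so that a count of 0 among 64 does not set the members apart. With the 50% of the day 0 list that had the highest −log10 q, 0 members had one, where 5.84% of all genes did. Atp5l and Ndufaf3 had the very −log10 q at which the list was divided, which 1062 peaks shared, and genome order broke that tie. The other 4 lay in the weaker part of the list. They had H3K4me3 in all libraries, with or without MBD2: for Ndufs8 the lengths were 3087 bp at day 0, 2485 bp at day 1, 2640 bp for myotubes and 2212 bp for reserve cells, and for Atp5l 3372, 2708, 3067 and 2444 bp.

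The other genes of the pathway give the setting. All 4 complex II and all 9 complex III genes were marked in each library. So were 9 regulators of mitochondrial genes and the 11 further assembly and inhibitor genes found in the annotation. Of 17 genes of complex IV and cytochrome c, 12 were marked at day 0, 14 at day 1, 15 for myotubes and 14 for reserve cells. The additions were isoforms known from striated muscle: Cox6a2 had no peak at day 0 and 277, 1700 and 459 bp in the later libraries, Cox8b had none and then 735, 2667 and 1078 bp, and Cox7a1 had 1082 bp in myotubes and no peak elsewhere. No complex I or ATP synthase member was gained or lost between libraries. Of all protein-coding genes 12403 were marked at day 0 and 11753 in all 4 libraries, so that most marked genes were kept as well. For complex III the median ratio of myotubes to day 0 was 0.892 and for complex II 0.966, beside 0.918 for complex I subunits. For complex IV and cytochrome c it was 0.849 over the 12 genes marked in both libraries.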

How the data were processed

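CUT&RUN libraries of C2C12 cells for H3K4me3 and MBD2 in 4 states were used, 8 lists in all, 1 library per group. Per the submitters' processing notes, reads were trimmed with Trim Galore, mapped to mm10 with Bowtie2, filtered with SAMtools and searched for peaks with MACS2. Versions, settings and any use of IgG were not given in the sources used here. For each peak the authors deposited, per the file headers, its length, the fragment pileup at the summit (a coverage signal), the fold enrichment (a ratio to the local background) and −log10 p and q values, of which −log10 q served only to take equal numbers of peaks and the stronger 50% of a list. No value was normalised between libraries.

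Peaks on the main chromosomes were joined to GENCODE M21 basic transcript starts within 1000 bp with Python 3.11.15, pandas 2.3.3 and numpy 2.4.6. The promoter peak with the highest fold enrichment gave a gene's length, and a ratio of 1.5 either way was counted. The 5′ end is that of the gene model, which for 8 members is not the start of a basic transcript. No p-value is given, since 1 library per group allows no test. The joining and the ratios were tested on simulated data. The members and lists were chosen with earlier results of these data known. Genes named are members with MBD2, without H3K4me3, with the 3 longest or shortest day 0 peaks, the 3 highest folds per library or the 4 largest changes each way from day 0, with fixed representatives of each complex. The values of 1 gene that this rule names are not reported here. Others were named to explain a count or a limit, after their values were seen. RefSeq promoters (GRCm38.p6) were found for 53 of 63 member symbols. Alternatives were other windows, starts, peak numbers, length measures, limits and member sets.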

Additional observations from a re-analysis of the deposited data

Results flagged for a closer look

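Ndufa13 was the 1 member whose H3K4me3 peak passed the 1.5-fold limit in opposite directions in the day 5 fractions. Its length was 1.71 times that of day 0 in myotubes and 0.52 times that of day 0 in reserve cells. With 1 library per state the difference was not tested. Of all genes marked in both libraries compared, 5.76% were at least 1.5 times longer in myotubes than at day 0. In reserve cells 19.6% were at least 1.5 times shorter. The share of all genes that passed both limits was not counted, so 1 member does not set this group apart. By bases covered within 5 kb of the 5′ end the values were 1.56 and 0.776, so that the direction held in both and the limit was passed in myotubes alone.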

How the results depend on the processing

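With other windows, starts and peak numbers, the 62 members with H3K4me3 became 55 to 63, beside 39.2% to 58% of all genes. Under the same changes the counts of 0 for MBD2 after day 0 were again 0, beside 0.114% to 1.07% of all genes. The MBD2 count at day 0 became 0 with equal numbers of peaks (0.292% of all genes) and 0 with the stronger 50% of the list (5.84%), where 2 members were tied at the dividing value. Dividing by the median of all genes gave median ratios of 0.971 for day 1, 1.03 for myotubes (reversed) and 0.985 for reserve cells over day 0, and 1.07 for myotubes over reserve cells. The counts shorter were then 2 for myotubes (9.37% of all genes) and 2 for reserve cells (6.58%) over day 0, and between the fractions 2 were longer (10%) and 1 shorter (4.87%). By bases within 5 kb, 0 members were shorter at day 1 (5.04%) and 2 in myotubes (13%). The sum of promoter peaks left 1 shorter at day 1 (5.58%). Among subunits alone 1 was shorter at day 1 and 2 in myotubes, beside the same 5.69% and 14.5% of all genes. With a limit of 25% longer, or its inverse, 16 of 62 were shorter at day 1 (19.1% of all genes), 2 longer (10.4%) and 14 shorter (32.2%) in myotubes, 40 shorter in reserve cells (53.6%), and 25 longer (30.7%) and 1 shorter (6.77%) between the fractions. The motif shares at RefSeq starts, an alternative added after seeing the data, stayed within the Wilson intervals of the main shares. Those intervals treat the members as random draws and are wide. The NRF1-like share rose from 9.38% to 15.1% of members (3.71% and 4.11% of all genes) and was still inside. Lying inside thus says little about how stable a share is. Depth is unknown, and a member without a peak may lie under the calling threshold.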
